A study of Mus musculus with 3 samples.

Results

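The miR-375 and miR-7 rows of colonic mucosa were taken from a table of normalized miRNA reads by hairpin name, as every row of miR-375, miR-7a and miR-7b, which gave 5 of 471 rows: miR-375-3p, miR-375-5p, miR-7a-5p, miR-7a-3p and miR-7b-5p. The table compared 3 mouse libraries, 1 per group. The mimic library, labelled rescue, was of global mir-10b-/- genotype with an injection of miR-10b-5p mimic. The KO library was of global mir-10b-/- genotype and labelled diabetic, and the WT library was mir-10b+/+ and labelled healthy. The number of mice behind each library is not stated in the labels. Their age, sex and strain, the dose of the mimic and any control injection are not stated either. Genotype and diabetic label differ together between KO and WT. Injection and the rescue or diabetic label differ together between mimic and KO. As a check of the deletion, miR-10b-5p was at 469 normalized reads in mimic and 14 in KO, against 18057 in WT. Every comparison below is between single libraries, with no replicate check and no test across samples.

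A miRNA is cut from a hairpin precursor whose 5p and 3p arms can both give a mature strand, and pairing of its seed (bases 2 to 8) with an mRNA lowers the output of that mRNA. miR-375 is best known from pancreatic islets, where it restrains insulin release and is needed for normal endocrine cell mass, and it is also found in hormone-secreting and other epithelial cells of the gut. miR-7 is known from islets, the pituitary and neurons, it restrains insulin release from beta cells, and in brain it binds many sites on the circular RNA Cdr1as. A table of miRNAs from whole mucosa holds no hormone transcripts, so the cells that gave these reads were not identified, and fewer cells of a type and less RNA per cell cannot be told apart.

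The mature miR-7 strands are shown because their shared seed and near-identity decide what each row can resolve. They were read from RefSeq on build GRCm38.p6, with the seed in capitals, and 3 of the 5 rows had an entry of the same name.
miR-7a-5p: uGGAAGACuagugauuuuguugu
miR-7b-5p: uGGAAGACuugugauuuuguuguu
miR-7a-1-3p: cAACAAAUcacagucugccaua
miR-7a-2-3p: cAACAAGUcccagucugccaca
miR-375-5p: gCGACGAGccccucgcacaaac
miR-7a-5p and miR-7b-5p share the seed GGAAGAC, which no other of the 1679 mature names in that table carries. Counted from the 5′ end, they differ by A10U, outside the seed, and miR-7b-5p is 1 base longer at its 3′ end. How reads were aligned and counted is not given, so how well the miR-7a-5p and miR-7b-5p rows were kept apart is not known. The 3p strands of the miR-7a loci differ at 3 positions, A7G, A10C and U21C, the first of them inside the seed. The deposited row is named miR-7a-3p with no copy number, so which of them it counts is not known. The 3p arm of miR-7b was not analysed here.

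The hairpins are shown because miR-7a-5p is encoded at more than 1 place, with both mature arms in capitals.
Mir7-1: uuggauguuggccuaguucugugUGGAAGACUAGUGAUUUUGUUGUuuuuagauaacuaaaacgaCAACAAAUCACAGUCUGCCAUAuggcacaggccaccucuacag
Mir7-2: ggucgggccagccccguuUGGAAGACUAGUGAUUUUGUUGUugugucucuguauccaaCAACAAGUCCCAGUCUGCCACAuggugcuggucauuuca
Mir7b: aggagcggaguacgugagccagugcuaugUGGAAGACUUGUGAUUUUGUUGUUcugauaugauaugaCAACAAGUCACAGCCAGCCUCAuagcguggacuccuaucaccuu
Mir7-1 lies at chr13:58392779-58392886 on the minus strand, inside Hnrnpk on the same strand and in no annotated exon of it. Mir7-2 lies at chr7:78888277-78888373 on the plus strand, outside annotated genes and 7481 bases from Aen. Mir7b lies at chr17:56242988-56243098 on the plus strand, 183 bases beyond a lincRNA. Mir375 lies at chr1:74900658-74900721 on the minus strand, between Cryba2 and Cfap65. Since the miR-7a-5p strand is identical in Mir7-1 and Mir7-2, its reads cannot be assigned to either locus.

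miR-375-3p, the strand that carries the known islet functions of this gene, was the most abundant of these miRNAs, at 54757 normalized reads in mimic and 115315 in KO, against 93198 in WT. It ranked 24th of 471 rows in mimic, 12th in KO and 13th in WT. As a share of all normalized reads it took 0.643% in mimic, 1.42% in KO and 1.91% in WT, so its share was lowest in mimic and highest in WT, while its deposited level was highest in KO. The other strand, miR-375-5p, stood at 12 in mimic, was listed at 0 in KO and stood at 6 in WT.

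The reads behind each value could be estimated, because low values in a library fell on whole multiples of a common step. The step was 1.5585 normalized reads per read in mimic, 1.394 in KO and 1.117 in WT. On that basis miR-375-3p rested on about 35134, 82722 and 83436 reads in mimic, KO and WT, and miR-375-5p on about 8, 0 and 5. A count of 0 was taken to allow up to 3 reads, or 4.18 normalized reads in KO. The counting interval of miR-375-5p in WT, 1.81 to 13.0 normalized reads, began below that limit, so a difference of KO from WT was not detectable at this depth. Its interval in mimic, 5.38 to 24.6 on about 8 reads, began just above the limit. Intervals of values above 0 are exact 95% intervals for counting error only and hold no animal or preparation spread.

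miR-7a-5p, the more abundant miR-7 strand, stood at 7875 in mimic and 7580 in KO, against 3110 in WT. miR-7b-5p, which shares its seed and comes from another chromosome, stood at 3249 in mimic and 2099 in KO, against 873 in WT. For both strands WT was the lowest library, and for miR-7b-5p the mimic library stood above KO as well. Together the strands with this seed summed to 11124 in mimic, 9679 in KO and 3983 in WT, which was 0.131%, 0.119% and 0.0817% of the library. miR-7b-5p made up 29.2% of that sum in mimic, 21.7% in KO and 21.9% in WT.

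miR-7a-3p, cut from the opposite arm of a miR-7a hairpin, was ordered differently, at 915 in mimic and 509 in KO, against 916 in WT. It was lowest in KO, where the 5p strand was more than double its WT level, and the mimic and WT values were 1 normalized read apart. About 587 reads lay behind it in mimic, 365 in KO and 820 in WT.

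**Figure D1:**
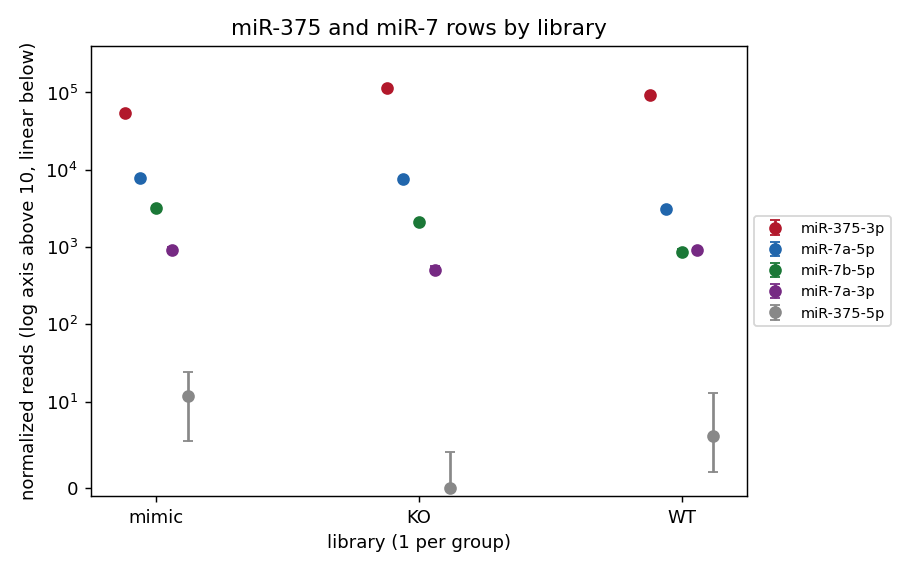
Normalized reads (log axis above 10, linear below) of the 5 miR-375 and miR-7 rows in the mimic, KO and WT libraries. Bars are exact 95% Poisson intervals of the estimated reads, smaller than most points, and the bar at 0 reaches the limit of 3 reads. miR-375-3p is the top row in each library, with 54757 in mimic, 115315 in KO and 93198 in WT, and miR-375-5p stays at 12 or below.

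In mimic against KO, the mimic-injected knockout labelled rescue is set beside the knockout labelled diabetic, so injection and label differ together. There miR-375-3p was 2.11-fold lower in mimic, with a log2 ratio of -1.07 (counting interval -1.09 to -1.06) after adding a pseudocount of 1. miR-7a-5p was at nearly the same level in both (0.06, interval 0.00 to 0.11), while miR-7b-5p was 1.55-fold higher (0.63, interval 0.53 to 0.73) and miR-7a-3p 1.80-fold higher (0.84, interval 0.66 to 1.04). With a limit of 2-fold, applied to the 415 rows with a mean of at least 10 over the libraries, 0 of the 4 rows that passed that filter were higher in mimic than in KO and 1 was lower. Among all 415 rows 13.3% were higher and 28.2% lower. The median log2 ratio was 0.34 over the 4 rows and -0.31 over all rows. The deposited ratio of miR-375-3p was one that 27.5% of all rows lay below, so it stood well inside the range of other miRNAs.

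Scaling each library to the same total shifted every log2 ratio of this comparison by -0.07, and scaling by median-of-ratios factors shifted it by 0.29. The ratio of miR-375-3p was -1.14 and -0.79 under these, lower in mimic under each but past 2-fold only under the first. Equal totals left 0 rows higher and 1 lower (12.8% and 30.6% of all rows), and median-of-ratios factors gave 1 higher, miR-7a-3p at 1.13, and 0 lower (18.6% and 24.1%). The direction of miR-7a-5p depended on the scaling, at -0.01 with equal totals and 0.34 with median-of-ratios factors.

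In KO against WT, where the knockout labelled diabetic is set beside the wild type labelled healthy, the miR-7 5p strands were higher by nearly the same factor. miR-7a-5p was 2.44-fold higher, with a log2 ratio of 1.29 (interval 1.22 to 1.35), and miR-7b-5p was 2.40-fold higher, with 1.26 (interval 1.14 to 1.39). miR-375-3p was 1.24-fold higher (0.31, interval 0.29 to 0.32), and miR-7a-3p was 1.80-fold lower (-0.85, interval -1.03 to -0.67). Of the 4 rows, 2 were at least 2-fold higher and 0 at least 2-fold lower, where 21.2% of all rows were higher and 9.64% lower. The median was 0.79 over the 4 rows and 0.13 over all rows. For miR-7a-5p 13.7% of all rows had a higher ratio, and for miR-7a-3p 14.7% had a lower one.

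The scaling decided more of this comparison, since equal totals shifted every log2 ratio of KO against WT by -0.74 and median-of-ratios factors by -0.15. With equal totals miR-7a-5p was at 0.55 and miR-7b-5p at 0.53, still higher in KO but under 2-fold, miR-7a-3p was at -1.58, and miR-375-3p turned to the opposite direction at -0.43. That left 0 of the 4 rows at least 2-fold higher and 1 lower, where 7.23% and 34% of all rows were. With median-of-ratios factors the 4 ratios were 1.13, 1.11, -0.998 and 0.16 in that order, which kept 2 rows higher and 0 lower, where 17.1% and 14.7% of all rows were.

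In mimic against WT, which shares its libraries with both comparisons above, miR-7b-5p was 3.72-fold higher, with a log2 ratio of 1.89 (interval 1.78 to 2.02), and miR-7a-5p was 2.53-fold higher, with 1.34 (interval 1.27 to 1.41). miR-375-3p was 1.70-fold lower (-0.77, interval -0.79 to -0.75). Of the 4 rows 2 were at least 2-fold higher and 0 lower, where 19.8% of all rows were higher and 25.8% lower. The median was 0.67 over the 4 rows and -0.14 over all rows. For miR-7b-5p 5.78% of all rows had a higher ratio. Equal totals shifted every ratio by -0.80, which put miR-7b-5p at 1.09, miR-7a-5p at 0.54 and miR-375-3p at -1.57, each on its side of 0 as before, with 1 row at least 2-fold higher and 1 lower (7.23% and 46.7% of all rows). Median-of-ratios factors kept 2 higher and 0 lower (22.9% of all rows in each direction). For miR-7a-3p the deposited values left the libraries level (0.00), against -0.81 with equal totals and 0.14 with median-of-ratios factors.

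**Figure D2:**
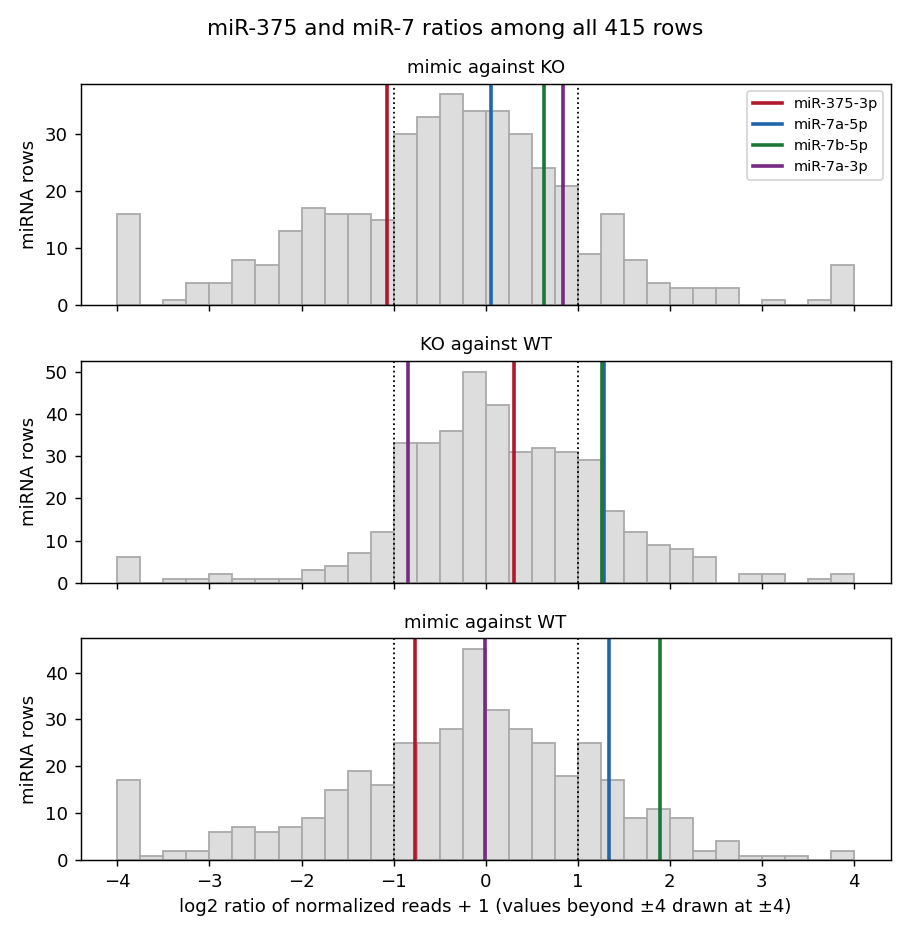
Log2 ratios of normalized reads plus 1 for mimic against KO, KO against WT and mimic against WT, with all 415 rows as grey bars, the 4 miR-375 and miR-7 rows as coloured lines and the 2-fold limits dotted. miR-375-3p lies at -1.07, 0.31 and -0.77, and miR-7a-5p at 0.06, 1.29 and 1.34.

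**Figure D3:**
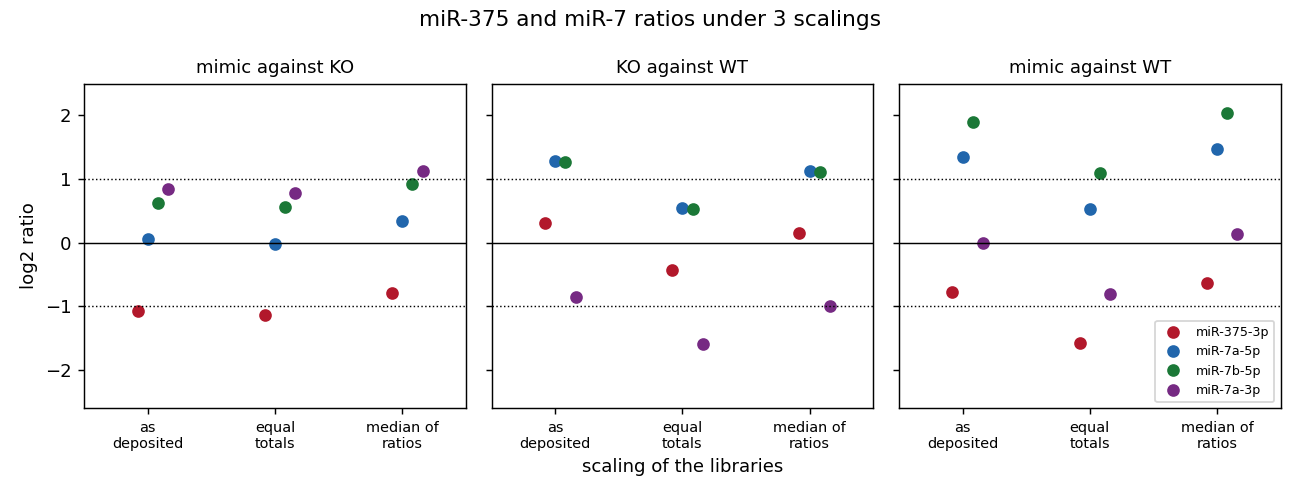
Log2 ratios of the 4 rows in each comparison as deposited, with equal totals and with median-of-ratios factors, the 2-fold limits dotted. In KO against WT miR-375-3p crosses 0, from 0.31 as deposited to -0.43 with equal totals, while the miR-7 5p strands stay above 0.

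Ratios of rows within a library do not depend on how libraries are scaled to each other. miR-375-3p was 6.95 times as abundant as miR-7a-5p in mimic and 15.2 times in KO, against 30.0 times in WT. The counting interval was 6.75 to 7.16 in mimic, 14.8 to 15.6 in KO and 28.9 to 31.1 in WT, so the libraries were separate on this measure beyond counting error. Against the sum of the miR-7 5p strands the ratio was 4.92 in mimic, 11.9 in KO and 23.4 in WT. The ratio of miR-7a-5p to miR-7b-5p was 2.42 in mimic (interval 2.30 to 2.55), 3.61 in KO (interval 3.41 to 3.83) and 3.56 in WT (interval 3.29 to 3.86). It was lower in mimic than in the other libraries, whose intervals overlapped.

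The ratio of the miR-7a-5p row to the miR-7a-3p row also differed between the libraries. The 5p row pools Mir7-1 and Mir7-2, while the copy behind the 3p row is not known. Arm balance and use of the loci therefore cannot be told apart. miR-7a-5p was 8.61 times as abundant as miR-7a-3p in mimic (interval 7.90 to 9.39) and 14.9 times in KO (interval 13.4 to 16.6), against 3.40 times in WT (interval 3.14 to 3.67). In log2 units with the pseudocount, the 5p over 3p ratio of KO exceeded that of WT by 2.13, and that of mimic differed from that of KO by -0.79. Shifts of this kind were common in these libraries. Of 144 hairpins with both arms at a mean of at least 10, 50% shifted by at least 2-fold in either direction in KO against WT and 48.6% in mimic against KO. In KO against WT 51 of them shifted up, as miR-7a did, and 21 down, with a median shift of 0.55 over the 144 hairpins. The KO shift of miR-7a was exceeded in size by 19 of the 144 hairpins.

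**Figure D4:**
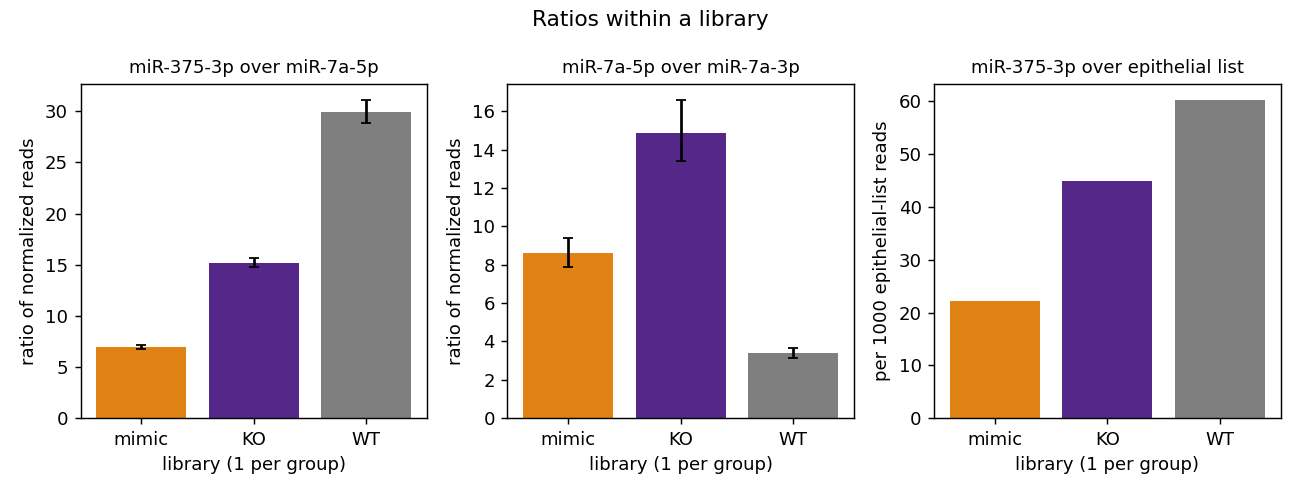
Within-library ratios in mimic, KO and WT of miR-375-3p to miR-7a-5p (left), of miR-7a-5p to miR-7a-3p (middle), and of miR-375-3p per 1000 normalized reads of the gut epithelial list (right). Bars on the left and middle panels are exact 95% counting intervals. The first ratio is 6.95, 15.2 and 30.0, and the second is highest in KO at 14.9.

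**Figure D5:**
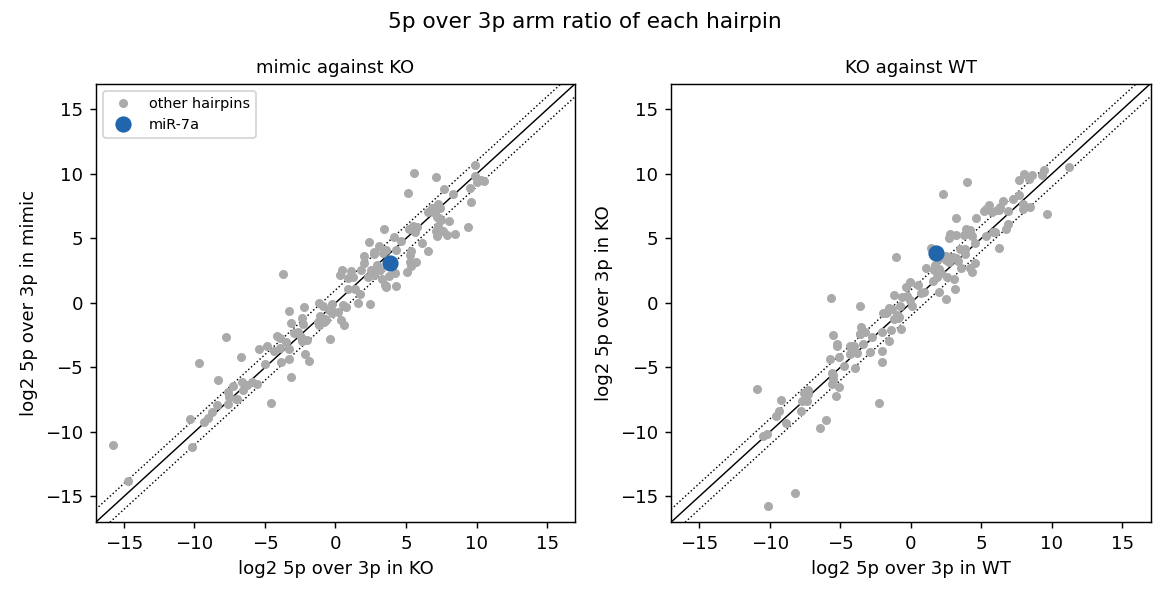
Log2 ratio of the 5p to the 3p arm for 144 hairpins, mimic (vertical) against KO (horizontal) on the left and KO (vertical) against WT (horizontal) on the right, with equality as a solid line and 2-fold shifts dotted. miR-7a, in blue, lies 2.13 above equality on the right and 0.79 below it on the left.

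Markers of the other cell types in mucosa differed between the libraries as well. All 8 hairpins of the gut epithelial list (miR-192, miR-194, miR-215 and the miR-200 family) had rows, none of them at 0, and they summed to 2471010 in mimic, 2571267 in KO and 1545959 in WT, or 29.0%, 31.6% and 31.7% of the library. Per 1000 reads of that list, miR-375-3p stood at 22.2 in mimic and 44.8 in KO, against 60.3 in WT, and the miR-7 5p sum at 4.50 and 3.76, against 2.58. The order of the libraries depended on which epithelial row was the denominator. Set against each of the 15 rows of the list in turn, miR-375-3p was lower in mimic than in WT for 15 rows, lower in mimic than in KO for 12 and lower in KO than in WT for 8, and the full order of mimic, KO and WT held for 5. Per 1000 reads of miR-192-5p, the most abundant row, it stood at 40.8 in mimic, 107 in KO and 142 in WT, whereas per 1000 reads of miR-200b-3p it stood at 393, 345 and 542, and per 1000 reads of miR-215-5p at 311, 1245 and 1090. The miR-7 5p sum was higher in mimic than in WT against 14 of the 15 rows, higher in KO than in WT against 12 and higher in mimic than in KO against 8.

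The smooth muscle list (miR-143, miR-145a, miR-145b, miR-1a, miR-133a and miR-133b, 6 of 6 hairpins with rows, 1 row at 0 in KO) summed to 2249802 in mimic, 1061385 in KO and 574316 in WT. Its share of the library was 26.4% in mimic, 13.1% in KO and 11.8% in WT, highest where the share of miR-375-3p was lowest, and its part in the miR-375-3p result was not tested. The sum rests mainly on miR-143-3p, at 1655929 in mimic and 954512 in KO, against 294225 in WT. Between KO and WT the rows of this list disagreed, with a list median of -0.46 against a sum 1.85 times as high in KO, and miR-145a-5p was lower in KO, at 83319 against 261621 in WT. Per 1000 reads of this list, miR-375-3p stood at 24.3 in mimic, 109 in KO and 162 in WT, and the miR-7 5p sum at 4.94, 9.12 and 6.94, so that with this denominator the miR-7 sum was lowest in mimic. The neuronal list (miR-124, miR-9, miR-137 and miR-128), of interest because neurons also make miR-7, summed to 1627 in mimic, 1892 in KO and 1999 in WT, with 4 of 4 hairpins having rows and none at 0. Its sum was led by miR-128-3p in KO and WT, at 1042 and 863, but not in mimic, where this row stood at 263. Its other rows were not ordered the same way, since miR-137-3p stood at 719 in mimic and 289 in KO, against 420 in WT, and the list median of mimic against KO was 0.37. The part of neuronal RNA in the miR-7 result was not tested.

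The fibroblast list (miR-199a, miR-199b and miR-214, 3 of 3 hairpins with rows) took 0.740% of the library in mimic, 1.05% in KO and 1.47% in WT, the same order as the share of miR-375-3p. White blood cell miRNAs (4 of 4 hairpins) summed to 51804 in mimic, 19438 in KO and 36491 in WT, or 0.609%, 0.239% and 0.749% of the library. Mimic lay above WT by sum and below WT by share. That sum rests mainly on miR-142a-5p, at 47347 in mimic, 14200 in KO and 31674 in WT. Between mimic and KO the rows of this list disagreed, with a list median log2 ratio of -0.58. miR-142a-3p, miR-150-5p and miR-155-5p were lower in mimic than in KO, and miR-223-3p was higher. The endothelial miR-126a rows summed to 122589 in mimic, 77948 in KO and 59834 in WT, or 1.44%, 0.959% and 1.23% of the library. KO lay above WT by sum and below WT by share. Red blood cell miRNAs (2 of 3 hairpins with rows) summed to 2951 in mimic, 1583 in KO and 1961 in WT. Their shares were 0.0347%, 0.0195% and 0.0402% of the library, with mimic below WT. The lower sum of KO than of WT came from miR-451a, at 849 in KO and 1615 in WT. The other rows of this list were higher in KO, miR-144-3p at 689 against 324 in WT and miR-144-5p at 45 against 22. The list median log2 ratio of KO against WT was 1. None of the rows of these lists was at 0 in any library, and their part in the miR-375 and miR-7 results was not tested. The pancreatic acinar miRNAs miR-216a, miR-216b and miR-217 were not analysed here.

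Other miRNAs described in islets or endocrine cells were counted from a list of 15 hairpins, of which 24 rows passed the filter. In mimic against KO 3 of the 24 (12.5%) were at least 2-fold higher and 1 (4.17%) lower, beside 13.3% and 28.2% of all rows. For KO against WT the counts were 7 (29.2%) higher and 2 (8.33%) lower, beside 21.2% and 9.64%, and for mimic against WT 10 (41.7%) higher and 4 (16.7%) lower, beside 19.8% and 25.8%. Equal totals changed the balance to 3 (12.5%) higher and 5 (20.8%) lower in KO against WT, beside 7.23% and 34% of all rows. In mimic against WT they gave 5 (20.8%) higher and 8 (33.3%) lower, beside 7.23% and 46.7%. The median log2 ratio of the list was -0.07 in mimic against KO and 0.08 in KO against WT, beside -0.31 and 0.13 over all rows. With equal totals it was -0.14 and -0.66, beside -0.38 and -0.60 over all rows. The most abundant was miR-148a-3p, at 173201 in mimic and 209390 in KO, against 37461 in WT. miR-30d-5p, which supports insulin gene expression in beta cells, stood at 43133 in mimic and 65605 in KO, against 7003 in WT. miR-96-5p stood at 9602 in mimic and 10364 in KO, against 4062 in WT. For these 3 miRNAs WT was the lowest library, as it was for the miR-7 5p strands. The deposited values of the other named rows lay closer together. miR-26a-5p stood at 128088, 122738 and 120950, miR-24-3p at 36240, 26266 and 30796, and miR-182-5p at 19337, 17564 and 19307 in mimic, KO and WT. This closeness depends on the scaling, since equal totals shift every log2 ratio by -0.74 in KO against WT and by -0.80 in mimic against WT.

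The rows most like each leading strand were found by the Euclidean distance between log2 profiles over the 3 libraries, each centred on its mean, among 298 other rows with a mean of at least 100. For miR-375-3p they were miR-152-5p (distance 0.05), miR-106b-3p (0.06), miR-331-3p (0.09), miR-183-5p (0.10) and miR-19b-3p (0.11). miR-183-5p stood at 13434 in mimic and 26951 in KO, against 24064 in WT, lowest in mimic as miR-375-3p was. For miR-7a-5p they were miR-125b-5p (0.07), miR-96-5p (0.12), miR-148b-3p (0.12), miR-144-3p (0.16) and let-7f-5p (0.18). miR-125b-5p stood at 17321 in mimic and 16539 in KO, against 7257 in WT. With 3 libraries many rows lie close by this measure, so it describes these profiles only.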

How the data were processed

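Small RNA was sequenced from colonic mucosa with a TruSeq small RNA kit as single-end reads, per the labels' protocols. Per the file headers, the deposited score is normalized reads per miRNA. The values are whole numbers, and 2 further deposited columns hold their differences, which matched subtraction with 0 exceptions. The submitters' processing notes name mm10 as the genome build. How reads were aligned, counted and normalized is not given in the sources used.

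The members and lists were chosen with earlier results of these data known. Sums were 8510085 in mimic, 8124898 in KO and 4872446 in WT. For values below 120, a step was sought whose multiples, rounded to whole numbers, hold the values. In mimic 96.6% of low values lay on it (63.9% of whole numbers do), in KO 97.8% (71.4%) and in WT 99.4% (89.1%). This gives about 5460433, 5828478 and 4362082 reads. Values divided by the step and rounded gave the counting intervals (exact Poisson, or exact binomial for ratios), which treat reads as independent molecules and do not include the pseudocount. The step search and the counting of ratios were tested on simulated data. All simulated steps were larger than the step of WT, so the search was not tested at a step that small.

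Log2 ratios used a pseudocount of 1 and rows with a mean of at least 10, which kept 415 of 471 rows and 4 of the 5 rows described. With 1 library per group no test across samples was possible. All rows of the named hairpins are described, with the 5 most similar rows of each leading strand and up to 6 most abundant rows of the marker lists. Alternatives were equal totals with and without miR-10b, median-of-ratios factors, a pseudocount of 0.1 or 10, a minimum mean of 100 or none, a 1.5-fold limit and 1 arm per hairpin. The comparison of arms was chosen after seeing the data. Hairpin positions come from RefSeq and GENCODE on GRCm38, the assembly called mm10. Python 3.11.15, pandas 2.3.3, NumPy 2.4.6, SciPy 1.17.1 and matplotlib 3.10.9 were used.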

Additional observations from a re-analysis of the deposited data

How the results depend on the processing

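No paired analysis was possible because each group has 1 library, and no replicate could be left out. The counts of rows at least 2-fold apart depended on the scaling. With equal totals, with or without the miR-10b rows, KO against WT had 0 rows higher and 1 lower (2 and 0 as deposited), and mimic against WT had 1 higher and 1 lower (2 and 0). Median-of-ratios factors gave mimic against KO 1 row higher and 0 lower (0 and 1 as deposited). Without the filter miR-375-5p, at 12 in mimic, 0 in KO and 6 in WT, added 1 higher row in mimic against KO and 1 lower row in KO against WT. A 1.5-fold limit gave 2 higher rows in mimic against KO, 1 lower row in KO against WT and 1 lower row in mimic against WT. The share of all rows at that limit, or without the filter, is not given here. The counts at those settings therefore cannot be set against other miRNAs. Pseudocounts of 0.1 and 10, a mean of at least 100 and 1 arm per hairpin left the deposited counts of rows at least 2-fold apart as they were. No ratio of at least 2-fold changed sign under any of these alternatives. The shift of the miR-7a arm ratio in KO against WT was 2.12 with a pseudocount of 10. Of the 5 rows most like miR-375-3p, 3 were shared when 1 arm per hairpin was kept, and of those most like miR-7a-5p, 4 were shared with no filter. Depth limits miR-375-5p, which rested on at most about 8 reads in any library.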
